A study of Mus musculus with 13 samples.

Results

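The nuclear genes for subunits of the oxidative phosphorylation complexes were followed through the development of mouse proprioceptive sensory neurons and across their adult classes. They were taken by symbol: the *Nduf* genes of the a, b, c, s and v series, *Sdha* to *Sdhd*, and all symbols that begin with *Uqcr*, *Cox4* to *Cox8* or *Atp5*. Of 50508 symbols in the count files, 90 matched and 6 of these were pseudogenes and were left out, so 84 genes remained, 37 for complex I, 4 for complex II, 8 for complex III, 18 for complex IV and 17 for complex V, the ATP synthase. The genes were matched by symbol alone, but earlier results of these data were known when the set was chosen.

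Single fluorescent neurons from the dorsal root ganglia (DRG) of mice of either sex were sorted into 13 plates of 96 wells and sequenced by Plate-seq, which counts unique molecular identifiers (UMIs). Of 1248 wells, the authors kept 586 as neurons. The adult plates (5 plates, 208 neurons), the p12 plates (4 plates, 154 neurons) and the p0 plates (2 plates, 55 neurons) came from PV:Cre+/-;Rx3:Flp+/-;Ai65+/- mice, in which tdTomato is switched on once a cell has expressed PV as well as Rx3, and the e14.5 plates (2 plates, 169 neurons) from TrkC:tdTomato embryos, in which the reporter follows TrkC alone. The reporter and the age therefore cannot be told apart between e14.5 and p0, and the study takes e14.5 clusters 3 and 4, which are included unless stated, to be probably other TrkC neurons such as Merkel cell afferents and not proprioceptors. Plates serve as replicates, numbered within a stage. The study used more than 1 animal at each stage and drew the adult neurons from fewer experiments than there are adult plates, but the labels tie no plate to an animal or experiment, so each p-value measures the spread between plates, which may be technical.

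Complex I (NADH dehydrogenase) and complex II (succinate dehydrogenase) feed electrons from NADH and succinate into the inner mitochondrial membrane, complex III passes them to cytochrome c, and complex IV (cytochrome c oxidase) hands them to oxygen. The proton gradient built on the way drives the ATP synthase. A few catalytic subunits are encoded by mitochondrial DNA and all others by the nucleus. Proprioceptors are large neurons that can sustain high firing rates, and their dependence on this source of ATP was not measured here.

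The promoters of these genes are known for binding sites of NRF1 and of ETS-family factors such as GABP, which activate many of them together. RefSeq promoter windows of 300 bases (GRCm38.p6, from 250 bases before to 50 bases after the transcript start) could be matched to 69 of the 84 genes, 3 of them through a synonym. The NRF1 core GCATGCGC was present on either strand in 10 of the 69, against 3.05% of the 27025 genes with a window, and the ETS core CCGGAAG in 16 (23.2%) against 9.93%. Either core was present in 21 (30.4%) against 12.4% of all genes. Among the genes with a window that were later called higher at p0 than at e14.5 it was present in 4 of 23 (17.4%), and among those tested and not called in 14 of 39 (35.9%), a difference that was not tested. A match describes the letters of the window and does not show that the site is bound. Windows with both cores are shown for *Sdhb*, the iron-sulfur subunit of complex II (chr4:140961021-140961320, plus strand), *Cox6a1*, the widespread form of a complex IV subunit (chr5:115348909-115349208, minus strand), and *Atp5k*, the e subunit of the ATP synthase (chr5:108434350-108434649, minus strand). The window of *Cox6b1* (chr7:30626065-30626364, minus strand) holds an ETS core and that of its tissue-restricted counterpart *Cox6b2* (chr7:4753045-4753344, minus strand) holds neither. Sequences run 5′ to 3′ on the strand of the gene, and capitals mark the NRF1 and ETS cores on either strand. The stretch GCGCATGCGC in *Cox6a1* and *Atp5k* reads as an NRF1 core on both strands, which overlap.
Sdhb: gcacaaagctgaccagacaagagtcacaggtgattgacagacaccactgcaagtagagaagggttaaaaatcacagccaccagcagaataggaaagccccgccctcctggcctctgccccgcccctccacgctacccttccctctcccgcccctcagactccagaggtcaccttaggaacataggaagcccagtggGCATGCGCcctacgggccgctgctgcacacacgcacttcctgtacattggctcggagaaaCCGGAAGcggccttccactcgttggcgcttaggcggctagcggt
Cox6a1: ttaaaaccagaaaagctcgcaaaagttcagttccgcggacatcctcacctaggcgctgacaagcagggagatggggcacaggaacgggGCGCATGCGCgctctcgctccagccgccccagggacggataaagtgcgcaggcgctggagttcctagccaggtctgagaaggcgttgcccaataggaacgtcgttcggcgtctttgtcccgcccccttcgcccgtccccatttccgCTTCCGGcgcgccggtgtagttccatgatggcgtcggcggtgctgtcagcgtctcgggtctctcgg
Atp5k: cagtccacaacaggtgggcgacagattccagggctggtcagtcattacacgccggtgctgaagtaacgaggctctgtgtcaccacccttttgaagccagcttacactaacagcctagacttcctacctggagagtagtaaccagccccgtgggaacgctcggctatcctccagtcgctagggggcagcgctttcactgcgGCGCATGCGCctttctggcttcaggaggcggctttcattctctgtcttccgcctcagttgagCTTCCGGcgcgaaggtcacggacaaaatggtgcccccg
Cox6b1: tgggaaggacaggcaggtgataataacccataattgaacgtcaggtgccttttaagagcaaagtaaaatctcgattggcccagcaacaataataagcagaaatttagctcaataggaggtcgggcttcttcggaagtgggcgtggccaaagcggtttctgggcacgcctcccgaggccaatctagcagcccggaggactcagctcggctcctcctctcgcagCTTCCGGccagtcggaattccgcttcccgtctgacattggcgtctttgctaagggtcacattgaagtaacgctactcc
Cox6b2: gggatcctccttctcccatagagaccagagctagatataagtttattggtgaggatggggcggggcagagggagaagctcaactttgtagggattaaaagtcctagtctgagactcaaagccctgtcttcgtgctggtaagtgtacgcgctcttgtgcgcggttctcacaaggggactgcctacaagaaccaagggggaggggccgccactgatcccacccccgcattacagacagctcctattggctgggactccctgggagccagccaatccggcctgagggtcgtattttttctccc

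Of the 84 genes, 75 had a UMI in a kept neuron. The 8 *Uqcr* genes for subunits of complex III, among them the core proteins *Uqcrc1* and *Uqcrfs1*, were listed at 0 in every well. So were all 339 symbols that begin with U, whereas for the other first letters the median share of symbols with a UMI was 85.5%. Complex III was therefore not measured through these genes, and the complex was seen only through *Cyc1* (cytochrome c1) and the mitochondrial *mt-Cytb*. Between stages 71 of the 84 genes passed the filter on low counts (36 of complex I, 4 of complex II, 14 of complex IV, 17 of complex V), and between adult clusters 68 did. The kept neurons of a plate held 9669 to 65165 UMIs on average, with the lowest depth at e14.5 (9669 and 13061). All 8 neuronal markers examined were detected on every plate.

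Together the measured genes took between 5.58% and 12.7% of a neuron's UMIs, averaged over the neurons of a plate. At e14.5 the share was 5.58% and 6.11%, and at p0 it was 8.90% and 9.22%. At p12 it was 9.22%, 9.98%, 11.9% and 12.7% in replicates 1 to 4. In the adult it was 7.92%, 7.98%, 9.89%, 10.1% and 10.4% in replicates 1 to 5. Both e14.5 plates lay below every later plate, and the ranges of the 3 later stages overlapped. The mean rose from 5.84% ± 0.375 (SD, n = 2 plates) at e14.5 to 9.06% ± 0.228 (n = 2) at p0, a ratio of 1.55, and was 10.9% ± 1.61 (n = 4) at p12 and 9.26% ± 1.21 (n = 5) in the adult. With 2 plates against 2, no exact permutation test can reach p = 0.05, and none is given for the share.

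**Figure D1:**
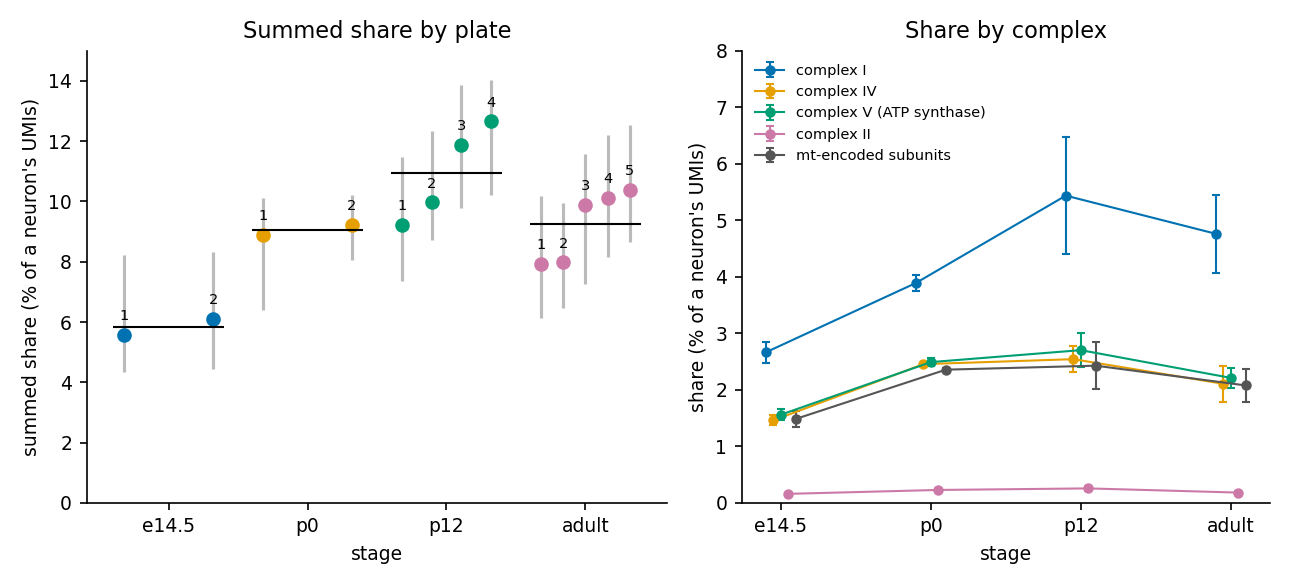
Left, summed share of the nuclear subunit genes (percent of a neuron's UMIs) for each plate, numbered by replicate; points are means over the neurons of a plate, grey lines run from the lowest to the highest neuron and black lines mark the mean of the plates. Right, the same share by complex with the mitochondrially encoded subunits (mean ± SD over 2, 2, 4 and 5 plates); both e14.5 plates (5.58% and 6.11%) sit below all others, and within p12 and within the adult the plates spread widely.

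The complexes did not keep the same proportions. Complex I genes took 2.66% ± 0.185 of UMIs at e14.5, 3.89% ± 0.150 at p0, 5.44% ± 1.04 at p12 and 4.76% ± 0.687 in the adult (SD over 2, 2, 4 and 5 plates). Complex IV genes took 1.46%, 2.45%, 2.54% and 2.11% at the same stages, and ATP synthase genes 1.56%, 2.49%, 2.70% and 2.21%. Complex I thus made up 45.6% of the summed share at e14.5, 42.9% at p0, 49.5% at p12 and 51.3% in the adult. Complexes were assigned by symbol throughout, so *Ndufa4*, now counted with complex IV, stays in complex I. At mean levels over the stages it made up 4.24% of the summed share. The 4 genes of complex II took between 0.159% (e14.5) and 0.255% (p12). The mitochondrially encoded subunits, which are transcribed from another genome, took 1.49%, 2.36%, 2.43% and 2.08%. Of the 13 genes in this list, the tests between stages held only *mt-Nd1*, *mt-Nd2*, *mt-Nd3*, *mt-Nd4*, *mt-Nd5*, *mt-Nd6*, *mt-Cytb* and *mt-Co1*. Complex IV was thus tested through *mt-Co1* alone among them and the ATP synthase through none, and this share does not stand evenly for all complexes. Ribosomal protein genes moved the other way, from 4.24% at e14.5 to 2.79% at p0, 1.56% at p12 and 1.53% in the adult.

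Between e14.5 and p0 many of the subunit genes rose. Of the 71 tested, 30 were called higher at p0 (adjusted p under 0.05, edgeR's quasi-likelihood test with Benjamini-Hochberg adjustment over 11939 genes) where 14.7% of all tested genes were called higher. None was called lower, against 13.1% of all genes, and none was lower at an unadjusted p under 0.05 or by DESeq2. The median log2 difference of the 71 genes was 0.74, against 0.01 over all genes. Both p0 plates lay above both e14.5 plates for 65 of them (36.5% of all genes did so) and below for 2 (33.9% of all genes). By complex, 10 of 36 genes were called in complex I, 3 of 4 in complex II, 9 of 14 in complex IV and 8 of 17 in the ATP synthase. Leaving out an e14.5 or p0 plate, here and below, leaves that stage with 1 plate, and the spread then comes from the other stages. A call lost in this way therefore does not show that a difference is unstable. Leaving out any 1 of the 4 plates gave 11 to 15 calls (11 without e14.5 replicate 1, 13 without e14.5 replicate 2 or without p0 replicate 1, 15 without p0 replicate 2), and thinning every neuron to 7000 UMIs gave 17, all of them higher. With e14.5 clusters 1 and 2 alone, 28 were called, again all higher.

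In complex I, the genes called included core and accessory subunits. *Ndufs1*, the largest iron-sulfur subunit, averaged 87.1 and 77.5 CPM (UMIs of the gene divided by all UMIs of the neuron and multiplied by 1e+06, averaged over the neurons of a plate) at e14.5 and 189 and 194 CPM at p0. *Ndufv1*, which carries the flavin that accepts electrons from NADH, averaged 124 and 97.1 CPM at e14.5 and 297 and 257 CPM at p0. For both genes the p0 plates lay above both e14.5 plates, and the log2 differences were 1.19 ± 0.22 (SE, adjusted p = 0.0015) for *Ndufs1* and 1.27 ± 0.26 (0.0031) for *Ndufv1* in edgeR. The call of *Ndufv1* was lost without e14.5 replicate 2 (adjusted p = 0.053). The core subunits *Ndufs3* (0.66 ± 0.21) and *Ndufs7* (1.1 ± 0.35) were called as well, while *Ndufs8* (0.81 ± 0.31, adjusted p = 0.065) and *Ndufv2* (0.75 ± 0.36, 0.13) were not. Among the accessory subunits *Ndufa10*, *Ndufa3*, *Ndufa5*, *Ndufb3* and *Ndufb5* were called, with log2 differences from 0.83 to 1.19. Other accessory subunits were not called, among them *Ndufs5* (log2 difference 0.01 ± 0.33 SE) and *Ndufa7*, which averaged 1013 and 1269 CPM at e14.5 and 960 and 976 CPM at p0.

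Complex II was led by *Sdhd*, one of its membrane anchors, at 207 and 216 CPM at e14.5 and 532 and 480 CPM at p0. The log2 difference was 1.19 ± 0.25 (SE, edgeR adjusted p = 0.0031). *Sdha*, the flavoprotein that oxidises succinate, was also called (116 and 104 CPM against 233 and 191 CPM, log2 difference 0.92 ± 0.26 SE), though not without e14.5 replicate 1 (adjusted p = 0.058), e14.5 replicate 2 (0.091) or p0 replicate 1 (0.15). *Sdhb* was not called, at 1114 and 1213 CPM at e14.5 and 1306 and 1424 CPM at p0.

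In complex IV several widespread subunits were called higher with all 4 plates, and most of these calls were lost with 3, where 1 stage keeps a single plate. *Cox4i1*, which takes part in the regulation of the enzyme by ATP, averaged 1680 and 1788 CPM at e14.5 and 3087 and 3134 CPM at p0 (log2 difference 0.78 ± 0.28 SE). *Cox5a* went from 1122 and 1105 CPM to 2056 and 2106 CPM (0.85 ± 0.30), and *Cox5b* from 1445 and 1705 CPM to 2567 and 2515 CPM (0.68 ± 0.20). All p0 values exceeded all e14.5 values, but the calls of *Cox4i1* and *Cox5a* were lost without any 1 of the 4 plates (adjusted p from 0.13 to 0.18) and with DESeq2 (0.067 and 0.075), and that of *Cox5b* without e14.5 replicate 1 (0.15) or either p0 plate (0.10 and 0.075). *Cox6a1*, *Cox7b* and *Cox8a* were called as well and also lost their calls without any 1 plate (adjusted p from 0.058 to 0.18). The differences themselves changed little with a plate left out, at 0.76 to 0.85 for *Cox4i1*, 0.88 to 0.89 for *Cox5a* and 1.13 to 1.16 for *Cox6a1* on the log2 scale. *Cox7c*, a small accessory subunit, was at 608 and 738 CPM at e14.5 and 488 and 579 CPM at p0, a difference within the error of the fit.

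In the ATP synthase, genes of the catalytic head and its central stalk were among those that rose. *Atp5b*, the catalytic beta subunit, averaged 795 and 793 CPM at e14.5 and 1820 and 1778 CPM at p0, and *Atp5a1*, the alpha subunit beside it, 550 and 524 CPM against 1094 and 1065 CPM. *Atp5d*, the delta subunit of the central stalk, averaged 351 and 300 CPM at e14.5 and 965 and 983 CPM at p0. All 3 were higher on both p0 plates, with log2 differences of 1.16 ± 0.17 (SE, edgeR adjusted p = 0.00031), 1.00 ± 0.19 (0.0021) and 1.51 ± 0.27 (0.0012), and each kept its call in all 9 alternatives tried. *Atp5sl*, a gene that carries an *Atp5* symbol but encodes an assembly factor, RefSeq's Dmac2, had the largest rise after *Cox6a2*, from 9.27 and 5.04 CPM to 49.1 and 35.1 CPM (log2 difference 2.56 ± 0.36, adjusted p = 0.00023). *Atp5o*, a stalk subunit, was not called, with 2837 and 3104 CPM at e14.5 and 2977 and 3134 CPM at p0.

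**Figure D2:**
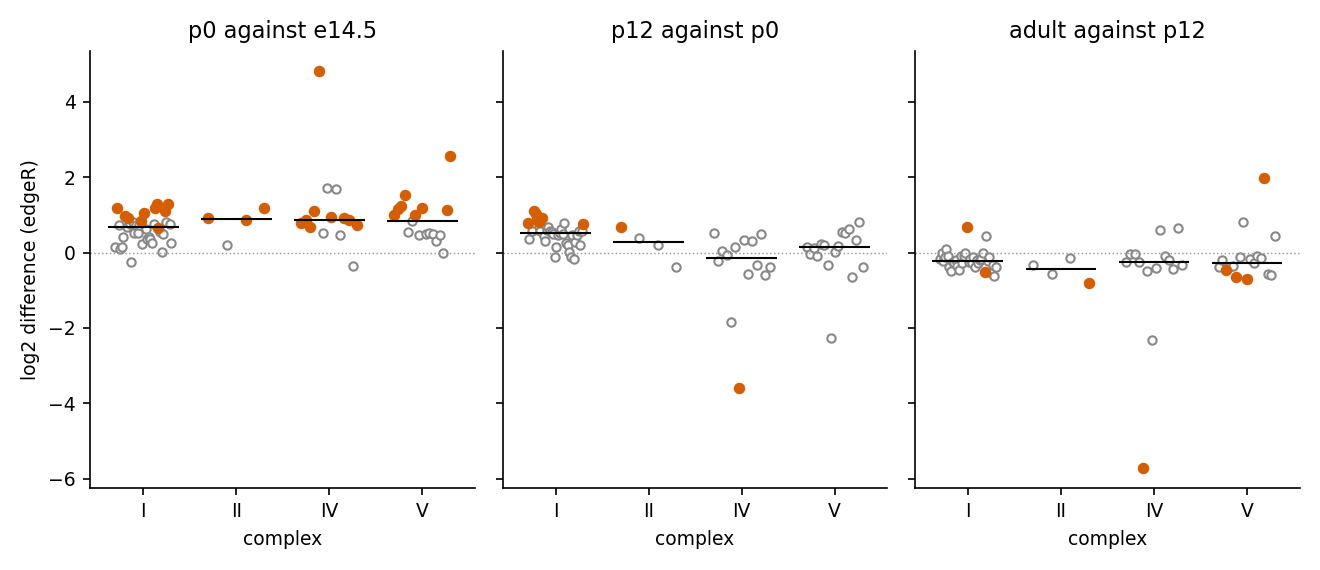
Log2 difference of each tested subunit gene between neighbouring stages, by complex (edgeR on plate sums); filled orange points were called at adjusted p under 0.05, open grey points were not, and black lines mark the median of a complex. Between e14.5 and p0 the medians of all 4 complexes lie above 0 (30 called higher and 0 lower), while the later steps have few calls on either side.

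Genes of pathways that feed the complexes were called higher in the same step. In lists taken from textbook pathways, 14 of 15 tested genes of the tricarboxylic acid cycle and pyruvate dehydrogenase were called higher at p0 and 0 lower, 10 of 16 of glycolysis and 0 lower, 6 of 8 mitochondrial carriers and related proteins and 0 lower, and 5 of 8 mitochondrially encoded genes and 0 lower. *Cyc1*, the measured nuclear subunit of complex III, averaged 324 and 211 CPM at e14.5 and 905 and 929 CPM at p0 (log2 difference 1.67 ± 0.36 SE, adjusted p = 0.0038). Of 33 assembly factors 7 were called higher and 1 lower, beside the 14.7% of all genes called higher. Among 13 regulators of mitochondrial biogenesis 3 were called higher, including *Esrrg*, an orphan receptor that activates oxidative genes, at 5.34 and 15.2 CPM against 26.7 and 50.8 CPM, whereas the coactivator *Ppargc1a* was at 34.9 and 44.8 CPM against 52.2 and 55.2 CPM and was not called (adjusted p = 0.43). None of 95 ribosomal protein genes was called higher and 24 were called lower.

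Other measures moved with this step. The 9 markers of satellite glia and Schwann cells summed to 22.6 and 14.7 CPM at e14.5, with 4 of 9 detected, and to 556 and 667 CPM at p0, with 8 of 9 detected. At p0 these markers lay mostly in cluster 3 (8 neurons), where they took 0.351% of UMIs, against 0.0109% in cluster 1 (35 neurons) and 0.0107% in cluster 2 (12 neurons). The summed share of the subunits was as high without that cluster, at 9.0% and 9.22% in cluster 1 and 8.86% and 9.0% in cluster 2 on p0 replicates 1 and 2. At e14.5 the share was 6.17% and 6.83% in cluster 1, 5.58% and 5.93% in cluster 2 and 5.09% and 5.49% in cluster 3, and 5.97% in cluster 4 on replicate 2, all below every p0 value. With e14.5 clusters 1 and 2 alone the difference in share was 3.07 percentage points, against 3.22 with all e14.5 neurons. The 8 neuronal markers summed to 3539 and 3007 CPM at e14.5 and to 5535 and 5369 CPM at p0, so their sum was higher at p0 as well. The single markers were split in edgeR. *Pvalb*, *Whrn* and *Slc17a7* were called higher at p0, *Runx3*, *Pou4f1* and *Isl1* were called lower, and *Ntrk3* and *Etv1* were not called. The part of these markers in the result was not tested. Depth rose too, from 9669 and 13061 UMIs per e14.5 neuron to 38306 and 44139 UMIs per p0 neuron.

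After birth the summed share did not separate the stages. The difference was 1.87 percentage points between p12 and p0 and -1.68 between adult and p12, and the plates overlapped in both. Of the 71 genes, 8 were called higher at p12 than at p0 (9.10% of all genes) and 1 lower (9.01%). All p12 plates lay above both p0 plates for 25 genes (16.6% of all genes) and below for 10 (24.0%). From p12 to the adult, 2 were called higher (7.57%) and 6 lower (6.56%), and all adult plates lay above all p12 plates for 1 gene (6.82%) and below for 8 (5.82%). These counts rested on which plates were used. Without p12 replicates 1 and 2 there were 43 calls between p12 and p0 (39 higher, 4 lower) and 40 between adult and p12 (3 higher, 37 lower), whereas without p12 replicates 3 and 4 there were 2 and 1. Leaving out single plates moved the first count to 0 without p0 replicate 1 (edgeR, with 9 genes higher and 1 lower at an unadjusted p under 0.05), 1 without p0 replicate 2, 17 and 14 without p12 replicates 1 and 2, and 3 and 5 without p12 replicates 3 and 4.

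Of the 8 genes called higher at p12 than at p0, a share of the 71 near that of all genes, 7 were among the 36 of complex I and the other was *Sdha*. With neurons thinned to 7000 UMIs 1 gene was called. *Ndufa13* (GRIM-19), an accessory subunit of the membrane arm, averaged 927 and 1024 CPM at p0 and 1451, 1552, 2238 and 2503 CPM at p12. *Ndufa2*, which sits near the NADH-oxidising tip, averaged 1151 and 1105 CPM at p0 and 1652, 1811, 2359 and 2574 CPM at p12. Every p12 plate exceeded both p0 plates, and replicates 3 and 4 exceeded replicates 1 and 2. The log2 differences were 1.1 ± 0.28 (SE, adjusted p = 0.014) for *Ndufa13* and 1.01 ± 0.26 (0.015) for *Ndufa2*. Both calls were lost without either p0 plate (adjusted p from 0.10 to 0.14). *Ndufa6* (0.91), *Ndufa3* (0.88) and *Ndufa4* (0.82), the last of these now counted with complex IV, were called too and lost their calls without either p0 plate (adjusted p from 0.16 to 0.21). *Ndufa6* also lost it without p12 replicate 3 (0.055) and *Ndufa3* and *Ndufa4* without p12 replicate 3 or 4 (0.062 to 0.080). Core subunits that were called higher at p0 than at e14.5 had log2 differences from p0 to p12 of 0.21 for *Ndufs1*, 0.20 for *Ndufv1*, 0.15 for *Atp5a1* and -0.05 for *Atp5b*, and none of these passed the test. *Sdha* was called higher (log2 difference 0.69 ± 0.22 SE, adjusted p = 0.042) but not without p0 replicate 1 or 2 or p12 replicate 1, 3 or 4 (0.058 to 0.38).

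From p12 to the adult *Sdhd* fell. It averaged 403, 308, 428 and 392 CPM at p12 and 182, 162, 215, 257 and 262 CPM in the adult, so that no adult plate reached a p12 plate. The log2 difference was -0.80 ± 0.16 (SE, edgeR adjusted p = 0.0057), and against p0 it was -1.17 ± 0.19 (0.00031), a call kept in all 14 alternatives tried. The call against p12 was lost without p12 replicates 3 and 4 together (0.081) and kept in the other 17 alternatives. *Atp5g3* (-0.70 ± 0.20), *Atp5f1* (-0.66 ± 0.20), *Ndufs4* (-0.52 ± 0.16) and *Atp5c1* (-0.47 ± 0.14) were called lower than at p12 as well. The first 3 of these lost their calls without p12 replicate 3 or 4 (adjusted p from 0.11 to 0.14) and without adult replicate 1 or 2 (0.061 to 0.070). *Ndufb4*, an accessory subunit of complex I, was called higher in the adult (585, 735, 895 and 1032 CPM at p12 and 1124, 1220, 1342, 1395 and 1513 CPM in the adult, log2 difference 0.67 ± 0.20 SE), with no overlap, but not without p12 replicate 1, 2 or 3 or adult replicate 2, 3, 4 or 5 (adjusted p from 0.053 to 0.090). *Atp5l* was called higher by 1.98 ± 0.58 on the log2 scale, a low and uneven signal of 6.14, 10.3, 12.9 and 17.6 CPM at p12 and 79.5, 43.1, 19.2, 24.8 and 15.0 CPM in the adult. Its plates overlapped, and the call was lost without p12 replicate 1, 2 or 3 or adult replicate 1 or 2 (0.059 to 0.098). Leaving out 1 plate at a time gave 2 to 15 calls between adult and p12, with 15 without p12 replicate 1 or 2, 2 and 4 without p12 replicates 3 and 4, and 5 and 3 without adult replicates 1 and 2. Of 15 genes of the tricarboxylic acid cycle 5 were called lower in this step and 0 higher.

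Set directly against p0, the adult had 2 of the 71 genes called higher (18.0% of all genes) and 7 lower (16.4%). All adult plates lay above both p0 plates for 15 genes (22.6% of all genes) and below for 19 (29.6%). The higher genes were again *Ndufa13* (1779, 1780, 2179, 2222 and 2544 CPM, log2 difference 1.20 ± 0.28 SE, adjusted p = 0.0037) and *Ndufa2* (1675, 1616, 2167, 2223 and 2365 CPM, 0.92 ± 0.26, 0.012). *Ndufa13* was not called without p0 replicate 1 (0.061), nor *Ndufa2* without either p0 plate (0.094 and 0.10). *Cox8a*, a small subunit of complex IV, fell from 2165 and 2085 CPM at p0 to 981, 917, 1220, 1300 and 1408 CPM (-0.72 ± 0.17, 0.005), a call lost without p0 replicate 1 (0.070). *Atp5g1* (-0.46 ± 0.17) and *Atp5g3* (-0.68 ± 0.25) were called lower, and both lost the call without either p0 plate (adjusted p from 0.13 to 0.33) and without adult replicate 1, 2 or 4 (0.052 to 0.099), and *Atp5g1* also without adult replicate 3 (0.077). In all, 3 genes were called without p0 replicate 1 and 5 without p0 replicate 2. Among 13 regulators of biogenesis 5 were called higher in the adult than at p0 and 0 lower, with *Esrra*, a receptor that activates oxidative genes, at 9.19 and 8.69 CPM at p0 and 61.0, 59.9, 54.4, 36.8 and 57.7 CPM in the adult (2.73 ± 0.34, adjusted p = 2.5e-05).

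The 3 genes *Atp5g1*, *Atp5g2* and *Atp5g3* encode one and the same mature c subunit of the ATP synthase ring. *Atp5g1* gave 66.3% of their UMIs at e14.5 (of 5062), 63.2% at p0 (of 13073), 56.1% at p12 (of 22209) and 67.0% in the adult (of 33770), and *Atp5g3* nearly all others. *Atp5g2* gave 0.198% at e14.5 and less later. On the p12 plates the *Atp5g1* part was 60.8% and 65.5% in replicates 1 and 2 but 52.4% and 54.4% in replicates 3 and 4.

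Complex IV has tissue-restricted isoforms, most of them known from muscle or testis, in place of widespread subunits. *Cox6a2* (chromosome 7, 128205435 to 128206387, GRCm38), the form known from heart and skeletal muscle, had 1 UMI at e14.5, 42 at p0, 22 at p12 and 0 in the adult. By plate it averaged 0 and 1.06 CPM at e14.5, 16.1 and 14.2 CPM at p0, 1.04, 1.64, 4.58 and 8.49 CPM at p12 and 0 CPM on all 5 adult plates. It was found in 1 of 169 neurons at e14.5, 20 of 55 at p0, 19 of 154 at p12 and 0 of 208 in the adult, so that it was highest at p0 on both plates. Pooled over a stage, the p0 level exceeded that of e14.5 34.7-fold, with an exact counting interval of 5.89 to 1402, and that of p12 3.94-fold (2.30 to 6.92). Against the adult, whose 0 UMIs allow at most 0.324 CPM (a floor of 3 UMIs over the stage), it was at least 56.7-fold higher at p0 and at least 14.4-fold higher at p12. *Cox6a2* was called in edgeR between e14.5 and p0 (adjusted p = 0.011), p0 and adult (0.00014) and p12 and adult (0.0062), but not between p0 and p12 (log2 difference -1.85 ± 0.63 SE, 0.066). The first call was lost without e14.5 replicate 1 (0.088) or p0 replicate 1 (0.063), and the last without p12 replicates 3 and 4 together (0.13).

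*Cox6b2* (chromosome 7, 4751792 to 4753094, GRCm38), the form known from testis, had the same peak, with 7 UMIs at e14.5, 30 at p0, 4 at p12 and 1 in the adult. It averaged 2.98 and 4.37 CPM at e14.5, 15.2 and 9.33 CPM at p0, 1.48, 2.22, 0 and 0.691 CPM at p12, and 0.147 CPM on adult replicate 2 with 0 on the others. Both p0 plates exceeded every other plate, and the gene was found in 20 of 55 p0 neurons and 1 of 208 adult neurons. The pooled p0 level exceeded that of e14.5 3.54-fold (exact counting interval 1.52 to 9.54), that of p12 15.5-fold (5.45 to 60.4) and that of the adult 121-fold (20.2 to 4953). *Cox6b2* was called lower at p12 than at p0 (edgeR adjusted p = 0.0033, lost without p0 replicate 1 at 0.082) and lower in the adult than at p0 (4.9e-05), while the step from e14.5 to p0 was not called (0.095).

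Beside the widespread subunits both isoforms were minor. At p0, *Cox6a2* gave 0.833% of the UMIs of *Cox6a2* and *Cox6a1* together (95% exact binomial interval 0.601% to 1.12%, for counting error only), and *Cox6b2* gave 0.321% of those of *Cox6b2* and *Cox6b1* (0.217% to 0.458%). In the adult the *Cox6a2* part was 0 of 14616 UMIs, with an upper bound of 0.0252%. *Cox7a1*, another form known from muscle, took another course, with 19, 73, 89 and 297 UMIs at e14.5, p0, p12 and adult, and gave 0.672%, 1.5%, 0.754% and 1.42% of the UMIs it shares with *Cox7a2*. Its plates overlapped between p0, p12 and adult, where p12 replicate 1 (37.8 CPM) stood above the other p12 plates (13.9, 10.5 and 8.55 CPM). *Cox8b* had 0 UMIs at e14.5 and p0, 11 at p12 and 28 in the adult, which is at least 2.31-fold above p0 and at least 1.90-fold above e14.5 in the adult. *Cox4i2*, *Cox7b2* and *Ndufa4l2* stayed at 13 UMIs or fewer at every stage, and *Cox8c* had none.

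Markers of muscle moved partly with these isoforms, and their part in the result was not tested. The 6 markers of skeletal muscle summed to 16.2 and 29.4 CPM at e14.5, 33.2 and 21.8 CPM at p0, and 26.6, 9.72, 8.03 and 15.5 CPM at p12, so that p0 replicate 1 was the highest plate. Most of the p0 sum was *Acta1*, skeletal alpha actin (30.7 and 19.0 CPM), which like *Cox6a2* was lower in the adult than at p0 (log2 difference -3.29 ± 0.57 SE, edgeR adjusted p = 0.00043). *Acta1* was also called lower at p12 than at p0 (-1.91 ± 0.57, 0.030), but not different between e14.5 and p0 (0.13 ± 0.60, 0.90), where *Cox6a2* rose. *Ckm* was at 1.91 and 2.74 CPM at p0, and *Tnnt3*, *Mb* and *Myh4* were at 0 there. The 3 markers of heart muscle summed to 4.38 and 2.60 CPM at e14.5 and to 1.12 and 2.05 CPM at p0, so they did not rise with *Cox6a2*. They reached at most 1.61 CPM at p12 and 1.27 CPM in the adult. In the adult the skeletal list summed to 7.04 to 10.8 CPM, with 0 UMIs of *Cox6a2*.

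**Figure D3:**
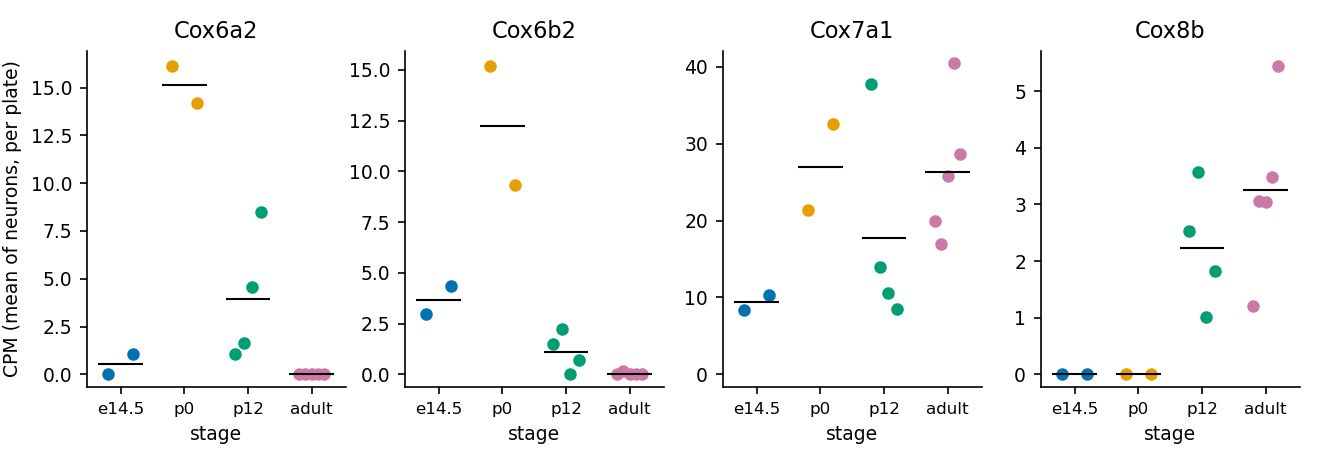
Level of 4 tissue-restricted subunit isoforms of complex IV by stage (CPM, mean of the neurons of a plate; each point is a plate and black lines are means of the plates; the scale differs between panels). *Cox6a2* and *Cox6b2* stand highest on both p0 plates and are at or near 0 in the adult, *Cox7a1* spreads widely within the later stages, and *Cox8b* has UMIs only from p12 on.

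Within a stage the plates fell into sets. The clusters of the deposited annotation lie unevenly on the plates: adult clusters 2 and 4 only on replicates 1 and 2 and cluster 3 mostly on replicates 3 to 5, p12 clusters 2 and 3 only on replicates 1 and 2 and p12 clusters 1, 4 and 5 only on replicates 3 and 4. The sets were taken from that placement after the data had been seen, and they also separate the plates by summed share, so their counts are descriptions. The share was 0.785 times as high in adult replicates 1 and 2 (mean 7.95%) as in replicates 3 to 5 (10.1%) and 0.782 times as high in p12 replicates 1 and 2 (9.60%) as in replicates 3 and 4 (12.3%). For the adult, whose clusters 1 and 5 lie on all 5 plates, the sets were compared within those clusters.

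In adult clusters 1 and 5, 50 of the 68 subunit genes tested were called in either direction (24.0% of 5703 genes) and 46 were lower in replicates 1 and 2 (11.0% of the 5703), while *Atp5l*, *Cox7c*, *Atp5a1* and *Ndufs5* were higher, with a median log2 difference of -0.37. At p12, 43 of 67 were called lower in replicates 1 and 2 (12.0% of 6741 genes) and 4 higher (8.65%), with a median of -0.60. The stages share no plate, and 37 genes were lower in both, which is 80.4% of the adult's 46 and 86.0% of those of p12. Of all 5422 genes tested in both stages, 324 were lower in both, or 52.4% of those lower in the adult and 44.0% of those lower at p12. Since most of the subunit genes were called lower in each stage, a large overlap follows in part from the counts, and it was not tested. The largest of the adult falls were *Cox6a1* (-0.82 ± 0.10 SE), *Ndufs7*, an iron-sulfur subunit of complex I (-0.70 ± 0.11), and *Ndufa11* (-0.65 ± 0.09). At p12 they were *Ndufv2*, the partner of *Ndufv1* (-1.07 ± 0.13), *Ndufc1* (-0.97 ± 0.13) and *Ndufb8* (-0.94 ± 0.14). Thinning every neuron to 7000 UMIs gave 15 calls in the adult, where all UMIs gave 50, and 40 at p12, where they gave 47, and leaving out 1 plate gave 37 to 53 and 26 to 46. The count of 26 came without p12 replicate 4.

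Single genes went against the rest. *Atp5l* did so in the adult through replicate 1, without which its log2 difference was -0.0091 in place of 2.04, and its call was also lost without replicate 3 (adjusted p = 0.076). *Cox7c* averaged 683 and 676 CPM in adult replicates 1 and 2 and 408, 427 and 371 CPM in replicates 3 to 5, and 410 and 576 CPM in p12 replicates 1 and 2 against 181 and 213 CPM in replicates 3 and 4. *Ndufs5*, an accessory subunit of complex I, was also called higher in replicates 1 and 2 of both stages (log2 differences 0.26 and 0.98), at p12 with 985 and 1353 CPM against 450 and 546 CPM. The adult call of *Ndufs5* was lost without adult replicate 1, 2, 3 or 5 (adjusted p from 0.072 to 0.27). *Cox5a* went in opposite directions, with 1196 and 1036 CPM against 1667, 1814 and 1983 CPM in the adult and 2180 and 2229 CPM against 1053 and 1212 CPM at p12. The catalytic subunits of the ATP synthase had log2 differences between the sets of -0.02 (adult) and 0.11 (p12) for *Atp5b*, neither called, and 0.30 (adult, called higher, though not without adult replicate 1, 2 or 4, adjusted p from 0.080 to 0.11) and 0.14 (p12, not called) for *Atp5a1*.

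The sets differed in other measures too. The mitochondrially encoded share was 2.30% in adult replicates 1 and 2 and 1.93% in replicates 3 to 5, opposite to the nuclear subunits, but 2.11% and 2.75% in the p12 sets, in the same direction. Depth was 35491 and 51348 UMIs per neuron in the adult sets and 58745 and 25093 in the p12 sets, again in opposite directions. Glial markers took 0.0409% and 0.0558% of UMIs in the adult sets and 0.0570% and 0.0261% at p12. Whether the sets come from different experiments, animals, sorts or library preparations is not given in the labels, and the part of these in the result was not tested. At p12 no cluster lies on both sets, so plate and cluster cannot be told apart there.

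**Figure D4:**
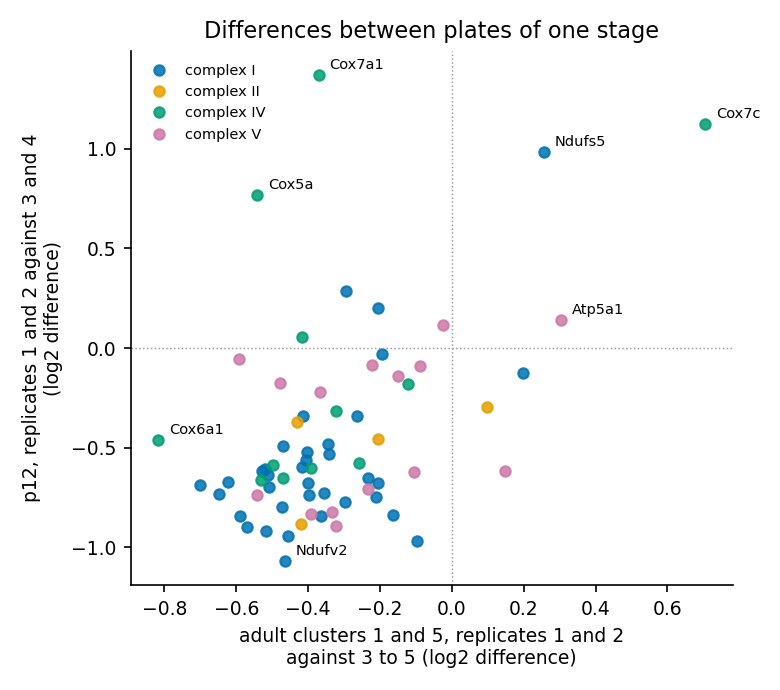
Log2 difference of each subunit gene between plates of 1 stage, adult replicates 1 and 2 against 3 to 5 within clusters 1 and 5 (horizontal) and p12 replicates 1 and 2 against 3 and 4 (vertical); points are genes coloured by complex. Most points lie in the lower left, where 37 genes were called lower in both stages; *Cox7c* and *Ndufs5* lie in the upper right and *Cox5a* in the upper left.

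The adult neurons fall into 5 clusters, which the study assigns to group Ia muscle spindle afferents (cluster 1), group Ib Golgi tendon organ afferents (cluster 5) and presumed group II spindle afferents (clusters 2 to 4). The remaining 42 of the 208 neurons are outside these clusters, and the study places them in classes other than proprioceptors or in very small clusters. They are included in the adult values by stage unless stated. Their mean share was 8.57% ± 1.12 (SD, n = 5 plates). UMIs were summed per cluster and plate and compared within plates, with the plate as a block. The authors had found the clusters in the same neurons, so these comparisons describe them and are not independent evidence. Any difference among the clusters was called for 21 of 68 subunit genes (16.0% of 7370 genes), but for only 2 without the plate block.

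The subunit genes took a slightly larger share of UMIs in clusters 2 to 4 than in clusters 1 and 5 of the same plate. On replicate 1 the summed share was 8.16% in clusters 2 to 4 and 7.68% in clusters 1 and 5, on replicate 2 it was 8.58% and 7.73%, on replicate 3 10.7% and 9.59%, on replicate 4 11.1% and 9.95%, and on replicate 5 10.8% and 10.5%. The difference was above 0 on 5 of 5 plates and averaged 0.767 ± 0.360 percentage points (SD, n = 5 plates), less than the spread between plates. The plates do not compare the same clusters. On replicate 1 clusters 2 and 4 stand for the group and on replicates 3 to 5 cluster 3 alone, and on replicate 2 cluster 3 has only 2 neurons (9.38%) beside cluster 2 (8.53%) and cluster 4 (7.85%). Of the 68 genes 18 were called higher in clusters 2 to 4 (5.60% of all genes) and 1 lower (4.99%), with a median log2 difference of 0.13, against -0.01 over all genes. Without the plate block 2 were called (1 higher, 1 lower), on replicates 1 and 2 alone 3, on replicates 3 to 5 alone 12, without replicate 1 6 and without replicate 2 10. Clusters 2 to 4 were shallower on each plate, with 18604 to 45101 UMIs per neuron where at least 2 neurons were present, against 47619 to 77425 in clusters 1 and 5. Thinned to 7000 UMIs per neuron, 8 were called, all higher.

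*Atp5o* averaged 1768 CPM in cluster 1, 1934 in cluster 5, 2387 in cluster 2 and 2621 in cluster 4 on replicate 1. On replicate 4 it averaged 2477 CPM in cluster 1, 2512 in cluster 5 and 3020 in cluster 3. Clusters 2 to 4 stood above clusters 1 and 5 on all 5 plates, with a log2 difference of 0.39 ± 0.06 (SE, edgeR adjusted p = 2.8e-05, 0.17 without the plate block). *Atp5j*, coupling factor 6 of the stalk (0.36 ± 0.05, adjusted p = 3.8e-05), and *Ndufc1* (0.31 ± 0.06, 0.00054) also differed (0.35 and 0.094 without the plate block). *Sdhd* differed most (0.48 ± 0.09, 0.001) but was not called without replicate 2 (0.15), without the plate block (0.20) or thinned (0.25). *Sdha* (0.36 ± 0.11) lost its call without replicate 2, 3 or 5 (0.053 to 0.86) and *Sdhb* (0.23 ± 0.07) without replicate 1, 2 or 4 (0.072 to 0.25). *Atp5b* (0.01), *Ndufs1* (-0.05) and the complex IV subunit *Cox5a* (-0.02) were not called. Of 15 glycolysis genes 6 were called higher in clusters 2 to 4 and 0 lower.

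*Ndufa10*, an accessory subunit of the membrane arm of complex I (chromosome 1, 92439010 to 92473860, GRCm38), was higher in cluster 1 than in cluster 5. It averaged 788, 857, 990, 928 and 1113 CPM in cluster 1 and 622, 660, 712, 718 and 833 CPM in cluster 5 on replicates 1 to 5. Cluster 1 was higher on 5 of 5 plates, by 0.40 ± 0.08 on the log2 scale (SE, edgeR adjusted p = 0.00089, 0.12 without the plate block and 0.29 with neurons thinned). In cluster 4 it averaged 499 and 370 CPM on replicates 1 and 2, below clusters 1, 2 and 5 there. It was the 1 gene called lower in clusters 2 to 4 (-0.29 ± 0.07, 0.0065), although within replicates 3 to 5 alone, where only cluster 3 stands for that group, the difference was 0.01 and not called. Leaving out replicate 2 ended this call too (0.087).

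Between clusters 1 and 5, 4 of 68 genes were called higher in cluster 1 (4.34% of all genes) and none lower (5.32% of all genes), and none was lower at an unadjusted p under 0.05 or with DESeq2. The share called higher was near that of all genes. *Ndufv3* (0.32 ± 0.08 SE), *Atp5a1* (0.26 ± 0.08) and *Atp5g1* (0.24 ± 0.07) were called beside *Ndufa10*. *Ndufv3* lost its call without replicate 4 (adjusted p = 0.073), *Atp5a1* without replicate 1, 2 or 4 (0.079 to 0.27) and *Atp5g1* without replicate 1, 3 or 4 (0.066 to 0.18), and 2 genes were called without replicate 1 and 1 without replicate 4. Without the plate block edgeR called 0, with 3 genes higher and 0 lower at an unadjusted p under 0.05. The summed share differed by 0.460, 0.0635, -0.195, 0.306 and 0.581 percentage points on replicates 1 to 5 (mean 0.243 ± 0.312 SD), with no constant sign. Of 11 tested regulators of biogenesis 3 were called higher in cluster 1, *Esrrb*, *Esrrg* and *Perm1*, and 0 lower. Between clusters 4 and 2, both on replicates 1 and 2, *Atp5l* alone was called lower (0.366% of all genes) and none higher (0.353%, with 2 subunit genes higher at an unadjusted p under 0.05 and 1 called higher by DESeq2). *Atp5l* averaged 16 and 141 CPM in cluster 2 and 18 and 14 CPM in cluster 4, and it was no longer called when replicate 2 (adjusted p = 1) or replicate 5 (0.065) was left out.

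**Figure D5:**
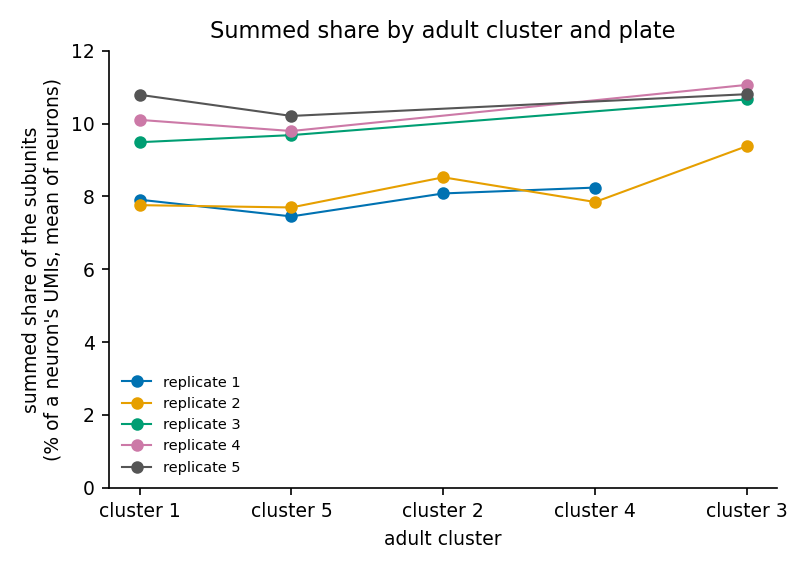
Summed share of the nuclear subunit genes (percent of a neuron's UMIs, mean of the neurons) by adult cluster, with a line for each plate; clusters with fewer than 2 neurons on a plate are not drawn. On each plate the mean of clusters 2 to 4 lies above that of clusters 1 and 5 (by 0.307 to 1.11 percentage points), and replicates 1 and 2 lie below replicates 3 to 5 in every cluster they share.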

How the data were processed

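Single neurons on 13 plates were sequenced by Plate-seq. The deposited values are raw UMI counts per gene and well, which the authors obtained after alignment with STAR to mm10 and assignment to NCBI gene models; the authors kept neurons with more than 2000 UMIs, and their deposited annotation of wells and clusters was used. Groups are the stages in the labels, and the plate is the replicate.

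CPM and shares were computed per neuron and averaged over the neurons of a plate. For tests, UMIs were summed per plate, or per adult cluster and plate (at least 2 neurons), and compared across all genes in R 4.3.3 by the quasi-likelihood F-test of edgeR 4.0.16, after TMM normalization and filterByExpr, at a Benjamini-Hochberg adjusted p under 0.05, with the plate as a block between clusters, whose sums come from the same plates. Stage fits hold all 13 plates. The summed share was not tested. Plate sums of 680212 to 2387288 UMIs limit the precision of genes with few UMIs, and counting intervals cover counting error only. Scripts were tested on simulated data.

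Named genes were, per comparison, the called subunit genes that rose most (up to 5) and those that fell most (up to 5), core subunits of each complex, tissue-restricted isoforms with their widespread partners, and the c subunit genes. *Ndufa7*, *Ndufs5*, *Cox7c* and further complex I genes between e14.5 and p0 and *Ndufb8* and single pathway genes were chosen after their values were seen. The gene set, the lists and the tests were chosen with earlier results of these data known. Alternatives were DESeq2 1.42.0, edgeR with the size factors of DESeq2, all genes with a UMI in place of the filter, neurons thinned to 7000 UMIs (20 shallower neurons left out), other cluster or plate selections, sums of at least 1 or 4 neurons, no plate block, and each plate left out in turn. The comparison of plate sets was added after the data had been seen. Pseudogenes were left out by symbol. *Atp5s* and *Atp5sl* encode assembly factors, not structural subunits, but match the rule and were kept. Reads that *Atp5l* or *Atp5g2* share with near-identical copies may have been split, so their levels are uncertain. 1 gene that the rule names is not reported here by name and stays in the counts.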

Additional observations from a re-analysis of the deposited data

Results flagged for a closer look

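In 3 of 102 groups of plates examined, 1 plate stood apart from the others by Dixon's criterion, which chance alone meets in about 1 group in 20. All 3 are tissue-restricted complex IV genes in the adult at very low levels. *Cox4i2* averaged 0.212 CPM on adult replicate 3 and 0 on the others, *Cox6b2* averaged 0.147 CPM on adult replicate 2 and 0 on the others, and *Cox7b2* averaged 4.92 CPM on adult replicate 5 and 0.316 to 1.09 CPM on the others. The values of *Cox4i2* and *Cox6b2* rest on 1 UMI each.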

How the results depend on the processing

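Counts of called subunit genes depended on plates and depth, and the cause was not tested. Thinned to 7000 UMIs per neuron, 17 were called between p0 and e14.5 (30 with all UMIs), 1 between p12 and p0 (9), 4 between adult and p12 (8), 2 between clusters 1 and 5 (4), 8 between clusters 2 to 4 and clusters 1 and 5 (19), 0 between clusters 4 and 2 (1; edgeR, with 3 higher and 4 lower at an unadjusted p under 0.05), 9 for any cluster difference (21) and 15 between the adult plate sets (50). Leaving out 1 plate gave 11 to 15 calls between p0 and e14.5, 0 to 17 between p12 and p0, 2 to 15 between adult and p12, 3 to 10 between adult and p0, 1 to 4 between clusters 1 and 5, 6 to 17 between clusters 2 to 4 and 1 and 5, 0 to 1 between clusters 4 and 2, 11 to 19 for any cluster difference, 37 to 53 between the adult plate sets and 26 to 46 between those of p12. Without p12 replicates 1 and 2 there were 43 calls between p12 and p0 and 40 between adult and p12, and without p12 replicates 3 and 4 there were 2 and 1. Between adult and p12 there were 4 without adult replicates 1 and 2, 16 without replicates 3 to 5 and 5 with adult clusters 1 to 5 alone. Without the replicate block, clusters 1 and 5 gave 0 calls, clusters 2 to 4 against 1 and 5 gave 2, clusters 4 and 2 gave 0 and any difference gave 2, and the log2 difference of *Cox7b* between clusters 2 to 4 and 1 and 5 turned to -0.0030. No paired analysis was possible between stages because no plate holds more than 1 stage. On replicates 1 and 2 alone the cluster comparisons gave, in the same order, 0, 3, 2 and 9 calls, and on replicates 3 to 5 alone 2 (clusters 1 and 5), 12 (clusters 2 to 4) and 13 (any), where *Ndufa10* in clusters 2 to 4 turned to 0.011. Sums of at least 1 neuron gave 2, 9 and 8 calls for the same 3 comparisons, and sums of at least 4 neurons gave 3 between clusters 4 and 2. Without the filter on low counts there were 7 calls for clusters 2 to 4, 2 for clusters 4 and 2 and 13 for any difference, and DESeq2 gave 2 for clusters 4 and 2. Without adult replicate 1 the difference of *Atp5l* between the adult plate sets turned to -0.0091 (up to 2.82 with another plate left out). The share difference between p0 and e14.5 was 2.95 to 3.48 percentage points with 1 plate left out and 2.90 without the 3 genes of highest mean level. That between adult and p0 ran from -0.0832 to 0.532 with 1 plate left out (-0.0169 without adult replicate 4) and was -1.11 without adult replicates 3 to 5. Depth limits the isoforms, which had at most 297 UMIs at any stage.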
